A study of Mus musculus with 4 samples.

Results

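The genes examined here are 10 members of the Wnt and R-spondin pathway: the ligands Wnt2 and Wnt9b, the potentiators Rspo1 and Rspo3, the receptors Fzd4, Lrp6 and Lgr4, the ubiquitin ligases Znrf3 and Rnf43, and the secreted protein Dkk3. They were taken by gene symbol from the 55488 genes listed for each library, and all 10 had UMIs (unique molecular identifiers, 1 per captured RNA molecule) in the cells kept. Single liver cells were profiled from 4 mice, 1 library per genotype. The mice were genetically unmodified animals (WT) and animals in which Alb-Cre removed floxed YAP (YAPKO), floxed TAZ (TAZKO) or both (DKO). Cre was driven by the albumin promoter, so HCs (hepatocytes) and BECs (biliary epithelial cells) lose the alleles while ECs (endothelial cells), HSCs (hepatic stellate cells), KCs (Kupffer cells) and immune cells keep them. None of the animals received a treatment, and HCs and non-parenchymal cells were isolated separately and then mixed for the 10x 3' assay.

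Wnt proteins are secreted, lipid-bearing signals that bind a Frizzled receptor such as FZD4 together with the co-receptor LRP6 and thereby stabilise beta-catenin. R-spondins bind LGR4 and draw away ZNRF3 and RNF43, a pair of membrane ubiquitin ligases that otherwise remove Frizzled receptors from the cell surface. In the liver, ECs around the central vein are a known source of WNT2, WNT9B and RSPO3, and beta-catenin activity in the neighbouring HCs maintains the pericentral gene programme.

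All genes were protein coding. On GRCm38, Wnt2 spans chr6:17988940-18030585 (minus strand), Wnt9b chr11:103727364-103749821 (minus), Rspo1 chr4:124986430-125009099 (plus) and Rspo3 chr10:29452416-29535867 (minus). Lgr4 lies at chr2:109917647-110014257 (plus), Znrf3 at chr11:5276324-5444847 (minus), Rnf43 at chr11:87662722-87735539 (plus), Fzd4 at chr7:89404355-89413134 (plus), Lrp6 at chr6:134446476-134566965 (minus) and Dkk3 at chr7:112116017-112159057 (minus). YAP and TAZ act on DNA through TEAD factors and beta-catenin through TCF/LEF factors, so the RefSeq promoters (GRCm38.p6, 250 bases before to 50 bases after an annotated start) were searched on both strands for the letters GGAATG (TEAD) and CTTTGAT (TCF/LEF). A promoter was held for 6 of the 10 members. GGAATG stood in 14.7% of all 32851 promoters and CTTTGAT in 3.73%. Of the members searched, Lgr4 held GGAATG or its complement at 2 places, starting at positions -178 and -158 relative to the annotated start, and none held CTTTGAT. The Lgr4 promoter is shown because it holds the matched letters (in capitals), and those of Wnt2 and Wnt9b because they are the endothelial ligands described next. They lie at chr2:109917397-109917696, chr6:18030396-18030695 and chr11:103749772-103750071, and are written 5′ to 3′ on the strand of each gene.
Lgr4: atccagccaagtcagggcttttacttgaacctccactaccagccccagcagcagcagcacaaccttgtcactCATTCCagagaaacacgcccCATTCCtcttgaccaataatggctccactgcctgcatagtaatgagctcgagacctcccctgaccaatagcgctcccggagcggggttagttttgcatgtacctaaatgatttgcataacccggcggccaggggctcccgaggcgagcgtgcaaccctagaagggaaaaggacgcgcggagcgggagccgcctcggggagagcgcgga
Wnt2: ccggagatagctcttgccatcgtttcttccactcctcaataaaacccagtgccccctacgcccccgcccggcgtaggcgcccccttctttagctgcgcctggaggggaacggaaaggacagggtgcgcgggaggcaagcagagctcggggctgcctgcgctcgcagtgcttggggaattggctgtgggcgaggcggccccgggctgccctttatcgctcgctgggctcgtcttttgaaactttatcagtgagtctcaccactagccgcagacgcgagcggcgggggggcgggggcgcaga
Wnt9b: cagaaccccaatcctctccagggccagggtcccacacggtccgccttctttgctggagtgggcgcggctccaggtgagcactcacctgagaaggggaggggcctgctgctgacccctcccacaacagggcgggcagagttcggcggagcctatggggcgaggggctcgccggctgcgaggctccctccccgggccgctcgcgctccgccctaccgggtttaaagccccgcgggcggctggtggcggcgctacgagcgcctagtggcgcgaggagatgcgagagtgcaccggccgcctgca

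Of the barcodes in the 4 matrices, 7155 (WT), 6275 (YAPKO), 8638 (TAZKO) and 8294 (DKO) passed the limits of 500 to 6000 genes and at most 10% mitochondrial UMIs. Their median depth was 4618, 7337, 3555.5 and 5952.5 UMIs. Between 33 and 64 kept barcodes per library carried a sequence also kept in another library. Yap1 in HCs was 21.4 CPM in WT, 4.77 in YAPKO, 47.3 in TAZKO and 4.53 in DKO, and Wwtr1 (TAZ) was 5.13, 13.2, 1.39 and 2.33 CPM. CPM here means UMIs of a gene per 1000000 UMIs of all genes, summed over the cells of 1 type in 1 library. The assay counts each captured 3' end once, so CPM was not divided by gene length. The cells fell into 22 clusters built without the members and 54 other pathway genes, and 15 classes were formed from markers, of which 1 (cluster 8) is called by its number only. The EC class held 1761, 1221, 1608 and 1191 cells with EC markers at 14680 to 16150 CPM, the HC class 2189, 1176, 2993 and 2894 cells, and the BEC class 54, 32, 28 and 7 cells. The cluster with all HSC markers also carried EC markers at 9209 to 12640 CPM and is called HSC+EC (436, 199, 293 and 198 cells). When it was subclustered together with the mesothelial and fibroblast cluster, 625 of the cells formed a subcluster led by endothelial genes such as Lyve1, Oit3 and Stab2, with EC markers at 15230 CPM and HSC markers at 2881 CPM, and 196 cells formed an HSC subcluster with HSC markers at 17840 CPM. HSC+EC values are therefore not values of HSCs alone. Other clusters with such RNA are called pDC+EC, neutrophil+EC and T/NK+EC. Cluster 8 had 6 KC markers raised and EC markers at 5866 to 6904 CPM. It was led by the haemoglobin genes Hbb-bs, Hbb-bt, Hba-a1 and Hba-a2, so it is given no cell type. That haemoglobin RNA came almost wholly from YAPKO, while KC markers were 5755 to 11740 CPM over the libraries. With 1 mouse per genotype no test of genotype was possible. Intervals given in brackets are exact 95% limits for counting error and compare libraries, not genotypes, and the share of genes past 2-fold is given instead as background.

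Wnt2 was mainly an EC transcript in every library. Of its 14261 UMIs in kept cells, 62.2% were in the EC class and 30.8% in the classes that carried EC RNA. In ECs, Wnt2 stood at 216 CPM in WT, 242 in YAPKO, 351 in TAZKO and 277 in DKO. All 3 knockout libraries lay above WT, TAZKO most of all. HCs, the Cre-targeted cells, held 0.588 to 0.948 CPM and B cells at most 0.998 CPM, so HCs were within the level of a cell type that should lack the gene. A Wnt2 UMI was seen in 46.9% (WT), 54.3% (YAPKO), 59.2% (TAZKO) and 55.8% (DKO) of ECs. After thinning every EC to 1000 UMIs the shares were 16.2%, 17.3%, 27.4% and 19.8%, with 2 to 12 shallower ECs left out per library. In B cells, which should lack the gene, 4 of 1785 cells held a Wnt2 UMI (0.224%) at a median of 2789 UMIs, against 5423 UMIs in ECs.

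Wnt9b, the other central-vein Wnt among the members, was scarcer, with 729 UMIs in kept cells and 62.3% of them in ECs. Its EC level was 11.2 CPM in WT, 11.5 in YAPKO, 14.6 in TAZKO and 18.1 in DKO, with DKO highest. No Wnt9b UMI was found in 9252 HCs, which allows at most 0.0455 CPM at the upper 95% limit, and none in 2918 T and NK cells or 1785 B cells. A Wnt9b UMI was seen in 3.81%, 5.41%, 2.99% and 6.38% of ECs in the order WT, YAPKO, TAZKO and DKO, and in 0.969%, 0.902%, 1.19% and 1.51% after thinning. Of 1785 B cells 0 held a Wnt9b UMI, with an exact 95% upper limit of 0.206% for the share of cells with a UMI.

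Rspo3 was found mainly in ECs and in HSC+EC. Of 7834 UMIs, 35.8% were in ECs and 55.5% in the classes that carried EC RNA, with 33.1% in HSC+EC. In ECs its level was 61.7 CPM in WT, 118 in YAPKO, 62.8 in TAZKO and 83.5 in DKO, with YAPKO highest. WT and TAZKO did not differ beyond counting error in these cells. TAZKO lay above WT with the cell limits read as UMIs, and below WT with cells typed one by one. In HSC+EC the Rspo3 level was 291 CPM in WT, 181 in YAPKO, 310 in TAZKO and 275 in DKO, and here YAPKO was the lowest library. HCs held 0.212 to 0.656 CPM. A Rspo3 UMI was seen in 6.70%, 10.7%, 6.65% and 10.8% of ECs (2.45%, 4.02%, 2.51% and 4.37% after thinning) and in 0.0560% of B cells. The HSC subcluster, with all 8 HSC markers raised against the other subclusters, held the highest Rspo3 level of any class: 719 CPM in WT, 391 in YAPKO, 587 in TAZKO and 502 in DKO.

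**Figure D1:**
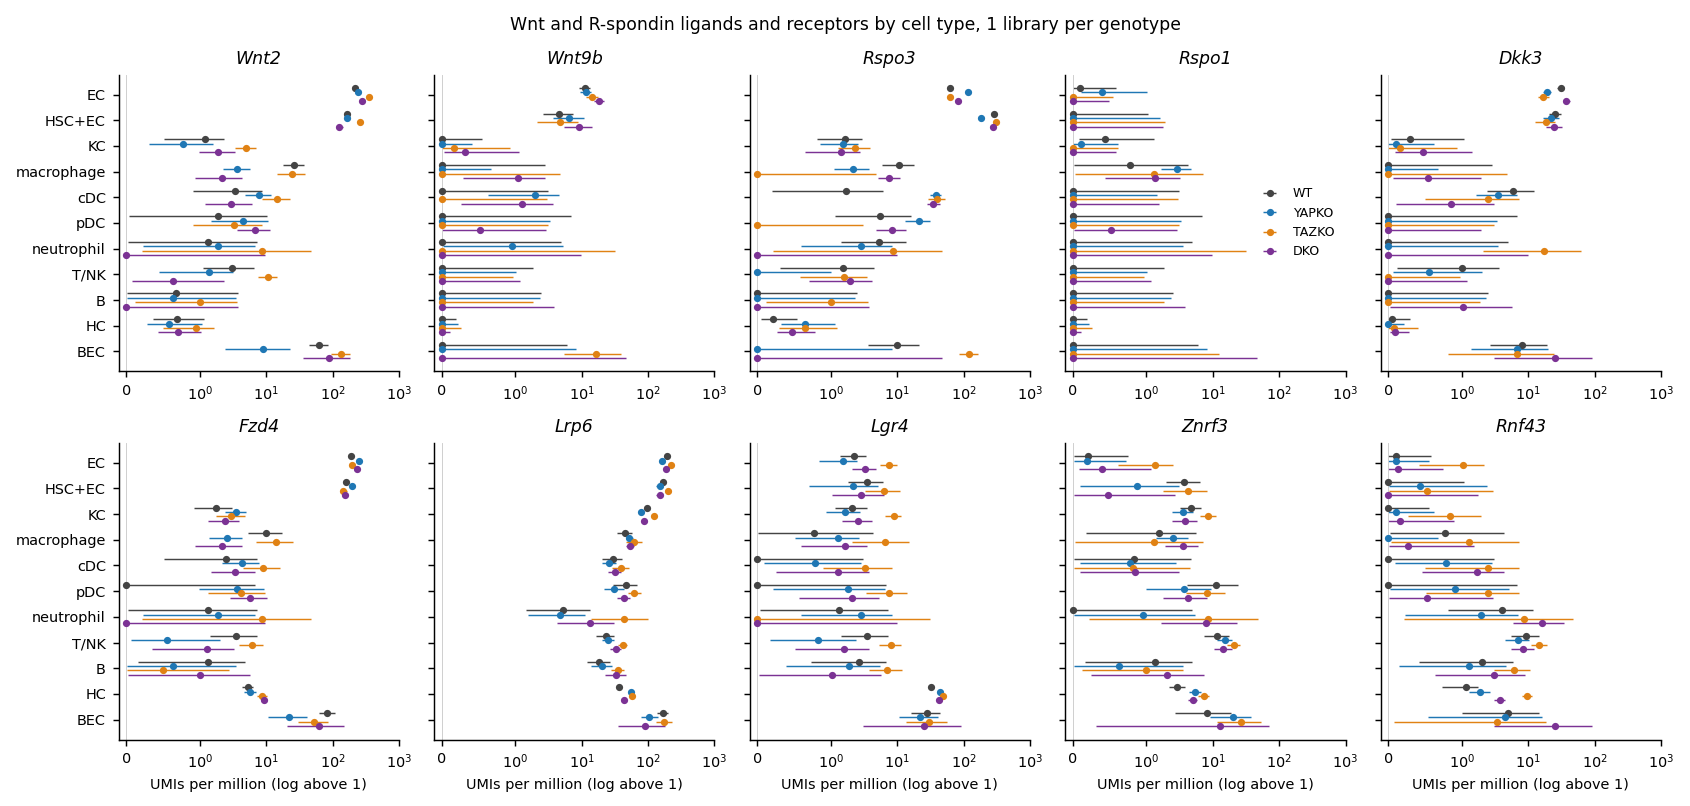
Level of each of the 10 genes (x axis, CPM, log scale above 1 and linear below) by cell type (y axis), with 1 point per library and lines for the exact 95% interval of the count. Wnt2, Wnt9b, Rspo3, Fzd4 and Dkk3 are high in ECs and in HSC+EC, the class that also carries EC RNA, Lrp6 is spread over all types, and Lgr4 is highest in HCs and BECs.

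Because HSC+EC and the other mixed clusters carried EC RNA, each gene was set against the EC marker RNA of the same cells. Per 1000 EC marker UMIs, Wnt2 was 17.1 in ECs, 15.7 in HSC+EC, 14.1 in cluster 8, 18.8 in pDC+EC, 19.2 in neutrophil+EC and 19.5 in T/NK+EC. Fzd4 lay between 14.2 and 14.8 in these 6 classes. These are sums over the libraries, and single libraries spread more widely: Wnt2 ran from 13.4 to 23.9 in ECs, from 7.98 to 21.2 in cluster 8 and from 14.8 to 34.2 in neutrophil+EC. Rspo3 was 5.42 in ECs, 5.23 in neutrophil+EC, 6.73 in T/NK+EC, 11.6 in cluster 8, 15.02 in pDC+EC and 23.9 in HSC+EC, and it was 71.0 in the HSC subcluster (44.8 to 89.0 over the 4 libraries). By library the Rspo3 ratio was 3.82 to 7.61 in ECs and 14.3 to 32.4 in HSC+EC, which did not overlap, whereas the ranges of cluster 8 (3.51 to 16.3) and pDC+EC (1.76 to 20.6) reached below that of ECs. In the HSC subcluster Wnt2 was 15.9 and Fzd4 16.1 per 1000 EC marker UMIs, near their EC values. Among HSCs with at most 0.5% of UMIs from EC markers (38, 8, 49 and 33 cells), Rspo3 was still at 534, 648, 508 and 414 CPM, while Wnt2 was at 13.8, 30.4, 90.5 and 41.9 CPM.

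**Figure D2:**
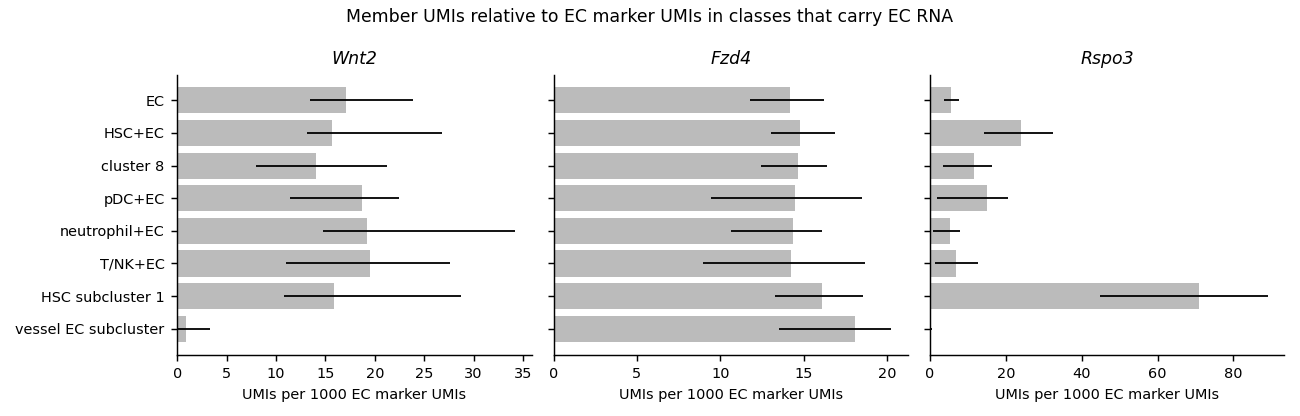
UMIs of Wnt2, Fzd4 and Rspo3 per 1000 EC marker UMIs (x axis) in ECs and in classes that carry EC RNA (y axis). Bars are sums over the 4 libraries and lines run from the lowest to the highest library; the summed Fzd4 ratio is 14.2 to 14.8 in ECs and the mixed classes and the summed Wnt2 ratio 14.1 to 19.5, whereas Rspo3 reaches 71.0 in the HSC subcluster.

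Rspo1, the R-spondin family member known from mesothelium and gonad, was mostly found in a small group of mesothelial and fibroblast cells. This group held 48 cells (17, 7, 10 and 14), and 113 of the 156 Rspo1 UMIs in kept cells were in it. Its Rspo1 level was 383 CPM in WT (297 to 486), 33.5 in YAPKO (6.91 to 97.9), 196 in TAZKO (121 to 299.7) and 172 in DKO (108 to 261). YAPKO rested on 3 UMIs in 7 cells. Mesothelial markers in the group were 2376 CPM in WT, 436 in YAPKO, 1951 in TAZKO and 807 in DKO, so that they too were highest in WT and lowest in YAPKO. Their part in the Rspo1 differences was not tested. Macrophages held 23 further Rspo1 UMIs, at 0.772 to 2.92 CPM. HCs, BECs, HSC+EC, T and NK cells, B cells and cDCs (conventional dendritic cells) held none.

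Within ECs the ligands were zoned. ECs were subclustered without the pathway genes, and the subclusters were named from fixed markers (Cdh13, Kit, Plpp1 and Thbd for pericentral ECs, and Efnb1, Efnb2, Ltbp4, Ntn4, Dll4 and Msr1 for periportal ECs). The pericentral subcluster held 41.4%, 47.7%, 41.2% and 49.7% of ECs in WT, YAPKO, TAZKO and DKO. Its Wnt2 level was 361, 401, 535 and 412 CPM, against 52.9, 61.2, 139 and 93.3 CPM in the periportal subcluster. Wnt9b was 21.8, 20.9, 29.6 and 30.1 CPM in pericentral and 0.876 to 1.67 CPM in periportal ECs. Rspo3 was 124, 217, 126 and 143 CPM in pericentral ECs and 4.38, 8.19, 10.5 and 7.18 CPM in periportal ECs. The groups of libraries did not overlap for any of these 3 ligands. The share of all genes that separate the 2 subclusters in this way was not computed, so nothing is read from that count. The mean log2 ratio of pericentral to periportal ECs was 2.39 for Wnt2 (SD 0.41, n = 4), 4.26 for Wnt9b (SD 0.26, n = 4) and 4.37 for Rspo3 (SD 0.56, n = 4).

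The other EC members were zoned less or not beyond their spread. Dkk3, a secreted protein of the Dickkopf family, had a mean log2 ratio of 0.85 (SD 0.42, n = 4), and Fzd4, a Frizzled receptor known for its part in vascular development, of 0.28 (SD 0.09, n = 4). For the co-receptor Lrp6 the ratio was 0.11 (SD 0.18, n = 4). The SD describes 4 mice of 4 genotypes and not replicates of 1 genotype.

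The same order appeared when ECs were ranked by their zone markers and split into 5 equal parts per library. Mean Wnt2 over the libraries went from 28.6 CPM in the most portal part through 104, 225 and 380 to 597 CPM in the most central one. Rspo3 went through 2.94, 5.88, 27.8, 79.9 and 283 CPM, and Wnt9b from 0.519 to 50.3 CPM. The steps differed: the most central part held 40.2 to 49.2% of Wnt2 UMIs, 62.2 to 74.8% of Rspo3 UMIs and 70.4 to 78.5% of Wnt9b UMIs. Fzd4 went from 178 to 248 CPM and Lrp6 from 167 to 205 CPM across the same parts, although Lrp6 in YAPKO went from 158 to 147 CPM. The median depth of the parts varied less than the ligands, from 4910 to 5688 UMIs in WT, for example.

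**Figure D3:**
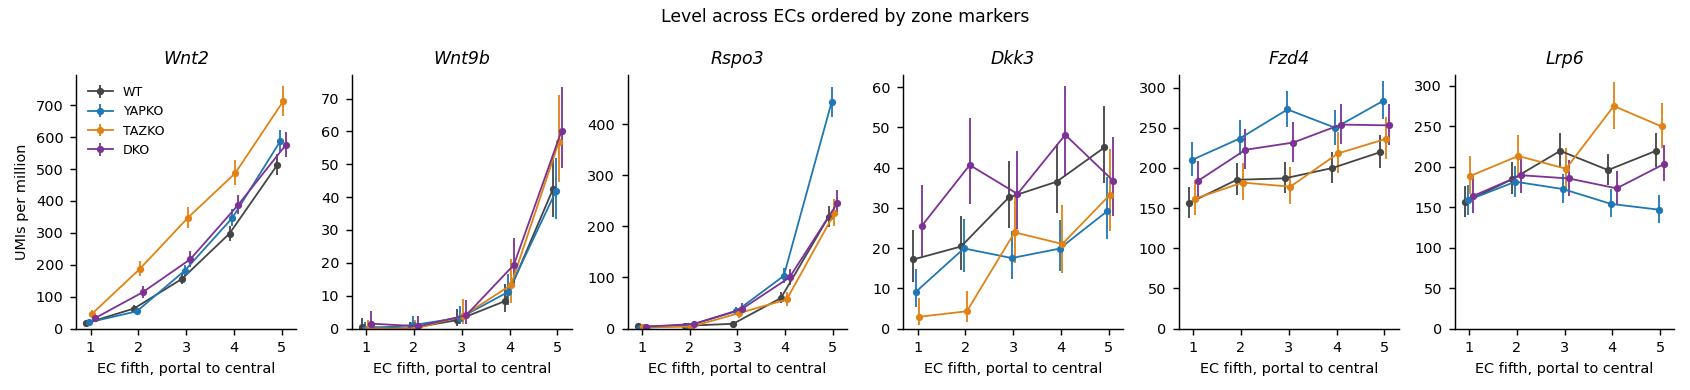
Level (y axis, CPM) of 6 members across ECs split into 5 parts by zone markers (x axis, 1 most portal to 5 most central), with 1 line per library and exact 95% intervals. Wnt2 climbs over all 5 parts in each library, whereas Wnt9b and Rspo3 stay near 0 in parts 1 and 2 and are highest in the last, where Rspo3 in YAPKO reaches 443 CPM.

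Few cells carried most of the endothelial Rspo3. The 1% of ECs with the most Rspo3 held 72.0% of its EC UMIs in WT, 51.2% in YAPKO, 61.8% in TAZKO and 46.5% in DKO, while the top 1% for Wnt2 held 6.50 to 8.22% of Wnt2. ECs with 5 or more Rspo3 UMIs numbered 23 in WT, 50 in YAPKO, 20 in TAZKO and 34 in DKO and held 66.6 to 88.6% of the EC Rspo3 UMIs. These numbers come from unthinned cells, and median EC depth was 5388, 7750, 3946 and 5724 UMIs in the same order. The part of depth in them was not tested. Wnt9b in the ECs with 5 or more Rspo3 UMIs was 330, 147, 450 and 178 CPM, against 6.69, 5.45, 8.07 and 12.6 CPM in the other ECs. Wnt2 was 929, 888.1, 664 and 774 CPM against 206, 213, 346 and 260 CPM. Both Wnts were higher in the Rspo3-rich cells of all 4 libraries, Wnt9b by the larger factor. Pericentral markers in these cells were 3688 to 4346 CPM (1375 to 1590 in the others), large vessel markers 797 to 1334 CPM (314 to 441) and HSC markers 118 to 229 CPM (212 to 312). The cells were picked by their Rspo3 count, so these values describe them and are no test.

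Rspo3 was more often seen in ECs with a Wnt2 UMI. Among ECs thinned to 1000 UMIs, Rspo3 was seen in 5.28% (WT), 13.3% (YAPKO), 4.58% (TAZKO) and 11.9% (DKO) of those with a Wnt2 UMI, and in 1.90%, 2.08%, 1.73% and 2.52% of those without. The exact 95% intervals of the 2 shares did not overlap in the 4 libraries. The depth was held equal by the thinning, and both genes share the pericentral zone.

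A second endothelial group held few ligand UMIs. A subcluster of 102 cells with Vwf, Edn1 and Gja5 among its leading genes, found within the mesenchymal clusters, held Wnt2 at 0 UMIs in WT and YAPKO, 1 in TAZKO and 4 in DKO (22.6 CPM, 6.15 to 57.8), with the zeros allowing up to 25.2 CPM in WT and 14.99 CPM in YAPKO at the upper 95% limit. It held 1 Rspo3 UMI and no Wnt9b or Dkk3 UMI in 4 libraries together, the last 2 with an upper 95% limit of 5.24 CPM. Fzd4 was at 116 to 171 CPM and Lrp6 at 81.5 to 163 CPM in these cells. Their periportal EC markers were 4080 to 6049 CPM, against 2392 to 3083 CPM in the periportal EC subcluster. Their pericentral EC markers were 582 to 909 CPM. The part of zone in the low ligand levels was not tested.

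A Fzd4 UMI was seen in 62.9% of ECs (50.5 to 79.6% by library) and a Lrp6 UMI in 61.6%, or 19.29% and 17.02% after thinning to 1000 UMIs. In B cells the unthinned shares were 0.280% for Fzd4 and 8.07% for Lrp6. Fzd4 was 190 CPM in WT, 251 in YAPKO, 194 in TAZKO and 231 in DKO ECs, with 57.4% of its 12779 UMIs in the EC class. In HCs it was 5.29, 5.71, 8.68 and 9.28 CPM, above the 0.499 to 1.34 CPM of B cells. Lrp6 was 196, 163, 224 and 184 CPM in ECs, 88.7 to 173 CPM in BECs, 78.3 to 125 CPM in KCs and 36.9 to 56.9 CPM in HCs. The ranges of Lrp6 in BECs and ECs overlapped, as did those of BECs and KCs. Its lowest named classes were B cells (18.2 to 34.9 CPM) and neutrophils (4.78 to 42.7 CPM, from 19 UMIs in 947 cells). No class served as a floor for Lrp6, and the part of free RNA in its low values was not tested.

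Lgr4, an R-spondin receptor, was mainly an HC transcript, with 87.2% of 3851 UMIs in HCs. Its HC level was 32.2 CPM in WT (29.7 to 34.9), 43.6 in YAPKO, 48.3 in TAZKO and 42.9 in DKO. BECs followed at 22.3 to 30.03 CPM, and the mesothelial and fibroblast group at 7.83 to 22.9 CPM. ECs, KCs and T and NK cells held 0.825 to 8.82 CPM, a range that overlapped the 1.03 to 6.99 CPM of B cells. Rspo3, by contrast, was at 0.212 to 0.656 CPM in HCs. BECs held Rspo3 at a mean of 32.5 CPM, with 0 UMIs in YAPKO and DKO and 120 CPM in TAZKO, and carried EC markers at 1183 to 5263 CPM, whose part in that value was not tested.

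The ligases were scarce, with UMIs spread over HCs, BECs and several immune classes. Znrf3 had 41.2% of its 983 UMIs in HCs and 20.5% in T and NK cells. Its level in T and NK cells was 11.7, 15.1, 20.6 and 14.4 CPM (WT, YAPKO, TAZKO, DKO), in BECs 8.18, 20.1, 26.7 and 12.7 CPM, and in HCs 2.91, 5.41, 7.29 and 5.04 CPM. KCs held it at 3.54 to 8.49 CPM and pDCs (plasmacytoid dendritic cells) at 3.64 to 11.1 CPM, ranges that overlapped that of HCs. Rnf43 had 55.6% of its 547 UMIs in HCs and 22.7% in T and NK cells, where it stood at 6.88 to 14.5 CPM. In HCs it was 1.16, 1.88, 9.70 and 3.73 CPM against 2.02, 1.27, 5.99 and 3.08 CPM in B cells, with counting intervals that overlapped in every library, so HC Rnf43 was not set apart from B cells. BECs held 8 Rnf43 UMIs in all. ECs held Znrf3 at 0.201 to 1.35 CPM and Rnf43 at 0.1003 to 1.05 CPM, at or below the B cell values of 0.633 to 2.05 and 1.27 to 5.99 CPM in most libraries.

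The comparison that the genotypes imply is each knockout library against WT, asked of ligand-making cells that keep YAP and TAZ and of HCs that lose them. In ECs, Wnt2 was higher than in WT by a log2 ratio of 0.70 in TAZKO (0.61 to 0.78), 0.36 in DKO (0.27 to 0.44) and 0.16 in YAPKO (0.07 to 0.25). Rspo3 was higher in YAPKO by 0.94 (0.79 to 1.08) and in DKO by 0.44 (0.27 to 0.60), and was 0.03 in TAZKO (-0.16 to 0.21). The Rspo3 intervals take each UMI as independent, although 46.5 to 72.0% of its EC UMIs lay in 1% of ECs. Spread between cells is therefore not covered by them. Wnt9b was higher in DKO by 0.69 (0.32 to 1.07), with 135 UMIs against 107 in WT. Dkk3 was lower in YAPKO (-0.68, -0.95 to -0.41) and TAZKO (-0.87, -1.20 to -0.56), and higher in DKO (0.28, 0.03 to 0.52). Fzd4 differed by 0.40, 0.03 and 0.28, and Lrp6 by -0.27, 0.19 and -0.10, in YAPKO, TAZKO and DKO. All genes together had a median log2 ratio of 0.04, 0.17 and 0.04 in these libraries.

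Of 7 members with at least 20 UMIs in the pair of libraries in ECs, 0 passed 2-fold in YAPKO, where 7.35% of all genes did, 1 in TAZKO, where 9.9% did, and 0 in DKO, where 8.59% did. The 1 was Lgr4, with 50 UMIs in TAZKO against 21 in WT (log2 ratio 1.77, 1.01 to 2.58). B cells of TAZKO also had more Lgr4 than those of WT, 6.99 against 2.69 CPM, and the part of free RNA in the EC value was not tested. HC markers in ECs were 3967 CPM in WT, 887 in YAPKO, 4250 in TAZKO and 1213 in DKO, and their part in the EC differences was not tested. The Rspo3 ratio of YAPKO depended on the cells admitted, being 1.82 with 500 to 6000 read as UMIs per cell and 0.30 with cells typed one by one. That of TAZKO did too, rising above its interval with the first choice and falling below it with the second.

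In HSC+EC, Rspo3 differed from WT by -0.69 in YAPKO (-0.86 to -0.52), 0.09 in TAZKO (-0.06 to 0.24) and -0.08 in DKO (-0.23 to 0.07). In the HSC subcluster all 3 knockout libraries were below WT, by -0.88, -0.29 and -0.52. HSC markers in the subcluster were 19340, 16470, 18650 and 16150 CPM, also highest in WT, and in HSC+EC 8339, 7017, 8934 and 8744 CPM, lowest in YAPKO as Rspo3 was. Their part in the Rspo3 differences was not tested. The Rspo3 ratio of YAPKO was thus negative in HSC+EC and positive in ECs, although the subcluster with endothelial genes lies within HSC+EC. Wnt2 in HSC+EC was 0.66 in TAZKO (0.48 to 0.84) and -0.37 in DKO (-0.59 to -0.15), while EC markers in that class were 12100 CPM in WT, 12640 in YAPKO, 9595 in TAZKO and 9209 in DKO. No member passed 2-fold in HSC+EC. The counts were 0 of 6 in YAPKO, 0 of 8 in TAZKO and 0 of 6 in DKO, where 6.7%, 10.7% and 8.62% of all genes passed. With UMI limits in place of gene limits on cells the Rspo3 ratio of YAPKO in this class turned to 0.38, and in HSCs with EC markers at most 0.5% of UMIs (8 cells in YAPKO) to 0.28. The TAZKO and DKO ratios of Rspo3 in this class rose above their intervals with UMI limits, that of DKO turning positive. With cells typed one by one they fell below their intervals.

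Cluster 8 (184, 271, 255 and 338 cells) held RNA of several kinds. Its haemoglobin RNA was 3.47 CPM in WT, 1944 in YAPKO, 3.66 in TAZKO and 0.769 in DKO, so it came almost wholly from YAPKO. Clusters of 1064 and 1026 cells led by the same haemoglobin genes formed with up to 20% mitochondrial UMIs and without correction by library, but they could not be named and gave no value, nor did UMI limits on cells or typing cells one by one. The members past 2-fold in cluster 8 were 3 of 6 in YAPKO, where 7.4% of all genes passed, 3 of 6 in TAZKO, where 11.8% did, and 3 of 7 in DKO, where 8.84% did. They were Wnt9b, Rspo3 and Dkk3 in YAPKO and DKO, and Wnt2, Znrf3 and Dkk3 in TAZKO. Several reached 20 UMIs only through the library where they were high, Wnt9b with 22 and 48 UMIs against 3 in WT, Dkk3 with 59 and 73 against 16, and Znrf3 with 16 against 5 in TAZKO, so nothing is read from the counts. Dkk3 in TAZKO was lower on 6 against 16 UMIs, with an interval across 0 (-2.66 to 0.41). Rspo3 in the cluster was 23.9 CPM in WT, 101 in YAPKO, 24.3 in TAZKO and 88.8 in DKO, a log2 ratio of 2.07 in YAPKO (1.71 to 2.46) and 1.89 in DKO (1.53 to 2.28). It was seen in 26, 38, 17 and 61 cells, and the 2 or 3 cells with the most held 52.2%, 42.6%, 66.0% and 26.4% of its UMIs. Wnt2 in cluster 8 was higher by 1.65 in TAZKO (1.35 to 1.95). No ratio is read for Wnt9b in the cluster, since it had 3 UMIs in WT. Clustering without the top 8% of doublet scores gave instead 402 cells with EC RNA with Marco, Cd163 and Clec4f among the leading genes, in which the Rspo3 ratios were 3.88 in YAPKO and 3.56 in DKO, and Wnt2 in TAZKO was higher by 2.26. EC markers in the class were 5866, 6176, 6904 and 6100 CPM, and pericentral EC markers 405, 630, 584 and 594 CPM, lowest in WT. KC markers were 11740, 7129, 9130 and 5755 CPM, lowest in YAPKO and DKO. The part of the mix of RNA in these ratios was not tested.

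**Figure D4:**
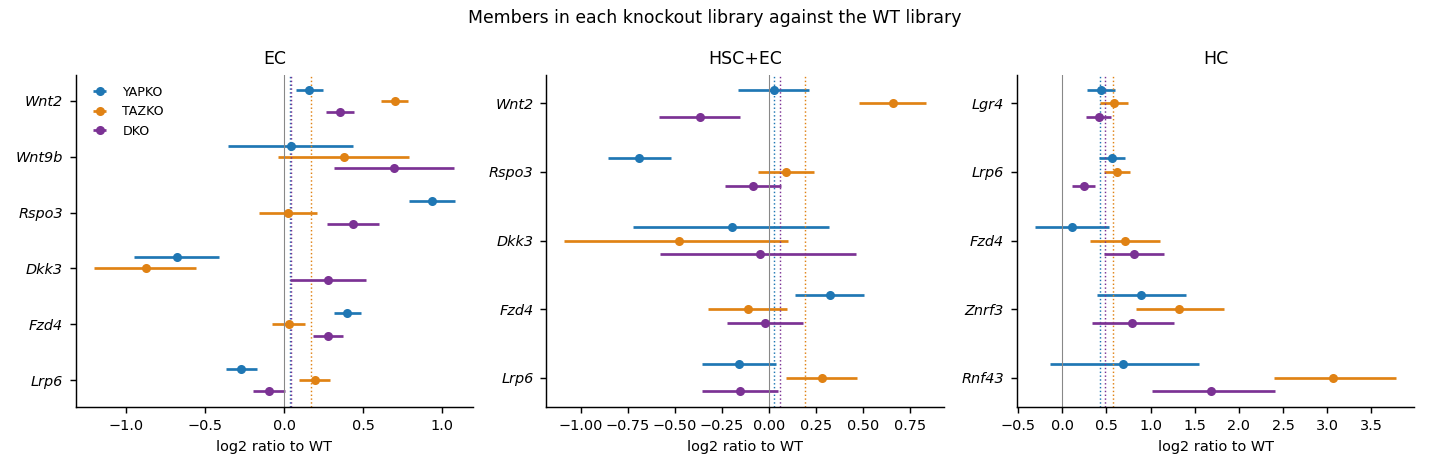
Log2 ratio of members in each knockout library to the WT library (x axis) in ECs, HSC+EC and HCs, with exact 95% counting intervals; dotted lines are the median over all genes in that library and cell type. Rspo3 in YAPKO lies at 0.94 in ECs and -0.69 in HSC+EC, and Rnf43 in TAZKO HCs at 3.06.

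In HCs, Rnf43 lay furthest from WT among the members in TAZKO and DKO. Rnf43 was 1.16 CPM in WT (0.729 to 1.76), 1.88 in YAPKO (1.29 to 2.66), 9.70 in TAZKO (8.12 to 11.5) and 3.73 in DKO (3.08 to 4.47). TAZKO stood above all others and DKO above WT and YAPKO. The log2 ratios to WT were 0.69, 3.06 and 1.68. Znrf3 differed by 0.90, 1.32 and 0.79, and Fzd4 by 0.11, 0.71 and 0.81. Lgr4 differed by 0.44, 0.59 and 0.41, and Lrp6 by 0.56, 0.62 and 0.24. In HCs the median of all genes was itself 0.43, 0.57 and 0.48. Relative to that median Lgr4 was 0.01, 0.01 and -0.07, Lrp6 0.13, 0.05 and -0.24, and Fzd4 -0.32, 0.14 and 0.33. On the same scale Znrf3 was 0.46, 0.75 and 0.31, while Rnf43 was 2.48 in TAZKO and 1.20 in DKO. The libraries filled the HC clusters unequally: cluster 0 held 1828, 617, 2052 and 1958 HCs of WT, YAPKO, TAZKO and DKO, and cluster 3 held 356, 559, 682 and 936. Lgr4 was 11.01, 8.83, 50.9 and 12.8 CPM in cluster 0 and 40.2, 50.6, 49.9 and 60.5 CPM in cluster 3, so that TAZKO stood apart in cluster 0. Nuclear RNA in cluster 0 was also highest in TAZKO, with Malat1 at 1919, 348, 5846 and 218 CPM and Neat1 at 89.7, 27.5, 289 and 5.70 CPM. It was lowest in DKO, whereas Lgr4 was lowest in YAPKO. The part of nuclear RNA was not tested. Rnf43 was highest in TAZKO in both, at 11.2 CPM in cluster 0 (0.734 in WT) and 14.3 in cluster 3 (1.36 in WT). Of 6 members, 0 passed 2-fold in YAPKO against 10.9% of all genes, 2 (Znrf3 and Rnf43) in TAZKO against 23.4%, and 1 (Rnf43) in DKO against 19.9%. The Znrf3 ratio of TAZKO was 0.84 in HCs with at least 5000 UMIs, below 2-fold, and 3.47 with the limits on cells read as UMIs.

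The HC libraries also differed in depth and RNA. Median UMIs per HC were 2145 in WT, 6262 in YAPKO, 1795 in TAZKO and 6452 in DKO, and the nuclear RNA Malat1 was 3042, 3496, 5757 and 3321 CPM. Their part in the Rnf43 difference was not tested. In HCs with at least 5000 UMIs the TAZKO ratio of Rnf43 was 2.90, where Malat1 was still 5022 CPM in TAZKO against 2996 in WT. Without cluster 16, of whose 264 HCs 259 were TAZKO, the Rnf43 ratio was 3.42. B cells held Rnf43 at 2.02 CPM in WT and 5.99 in TAZKO, a ratio in the same direction from 3 and 12 UMIs.

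Znrf3, Rnf43 and Axin2 are known beta-catenin target genes in many tissues, and the target genes on the pathway list were read beside them. Axin2 was at 4, 7, 37 and 6 UMIs in WT, YAPKO, TAZKO and DKO HCs, and it had enough UMIs for a ratio only through TAZKO, so no ratio is read from it. Tbx3, a transcription factor, was at 0.794, 2.35, 22.1 and 1.82 CPM. With 15 UMIs in WT and 303 in TAZKO it too passed 20 UMIs only where it was high, so no ratio is read from Tbx3. Its TAZKO level depended on the HCs taken, being 11.6 CPM in HCs with at least 5000 UMIs, 41.6 without cluster 16 and 0.912 within cluster 16. B cells of TAZKO held 8 Tbx3 UMIs against 0 in WT, and the part of free RNA was not tested. Glul, the glutamine synthetase of HCs next to the central vein, was 36.2 CPM in WT, 104 in YAPKO, 28.9 in TAZKO and 39.3 in DKO. HCs with at least 5000 UMIs held it at 40.0, 68.0, 21.0 and 38.6 CPM. B cells held Glul at 37.0, 53.8, 22.45 and 44.1 CPM, and the part of free RNA in the HC values was not tested. Without cluster 16, where Glul was at 14.0 CPM in TAZKO, it was 36.3, 104, 42.6 and 39.3 CPM, so its place in TAZKO below or above WT depended on that cluster. Nkd1 was at 0.292 to 0.423 CPM in HCs and did not reach the counts for a ratio.

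**Figure D5:**
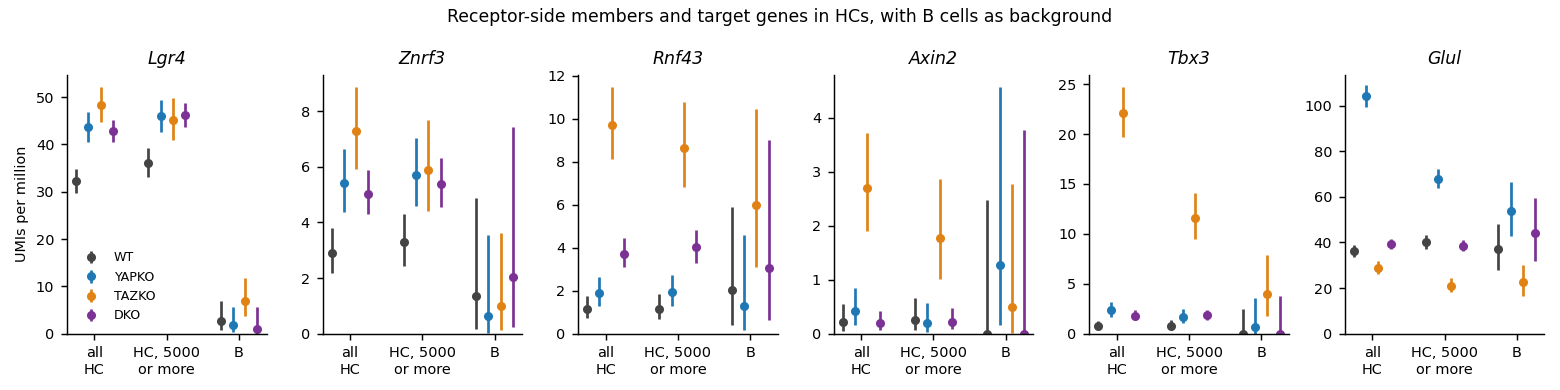
Level (y axis, CPM, with exact 95% intervals) of Lgr4, Znrf3, Rnf43 and 3 target genes in all HCs, in HCs of at least 5000 UMIs and in B cells (x axis), by library. Rnf43, Axin2 and Tbx3 are highest in TAZKO HCs, Glul in YAPKO HCs.

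HCs were also ranked by zone markers and split into 5 equal parts per library. Between the most portal and the most central part the mean log2 ratio was -0.27 for Lgr4 (SD 0.39, n = 4), -0.53 for Lrp6 (SD 0.22, n = 4), 0.22 for Znrf3 (SD 1.24, n = 4) and 1.35 for Rnf43 (SD 0.78, n = 4). The Lrp6 levels did not fall steadily: from portal to central they were 43.6, 15.02, 19.2, 16.6 and 24.4 CPM in WT, and in TAZKO the interval of the ratio included 0 (-0.67 to 0.04). Glul, a check of the order, was 2.77 (SD 0.56, n = 4). HCs of the most portal part were deeper than those of the most central part in each library, with a median of 27860 against 1806 UMIs in WT, 35840 against 2733 in YAPKO, 5848 against 1355 in TAZKO and 20930 against 3698 in DKO. Zone and depth cannot be told apart in these ratios.

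The 54 other genes of the pathway, fixed as a list, mostly had few UMIs in these cells. Of the 17 other Wnts, 3 had at least 100 UMIs in kept cells (Wnt4, Wnt5a and Wnt5b), and of the 2 other R-spondins 0 did. Wnt4 was at 115 to 317 CPM in BECs and 37.5 to 63.2 CPM in HSC+EC. Of 15 other receptors 8 reached 100 UMIs. Lrp5, the relative of Lrp6, was at 59.7 to 84.4 CPM in ECs and 4.85 to 18.1 CPM in HCs, and Fzd8 at 17.8 to 25.9 CPM in ECs. Of 12 other inhibitors 3 reached it, among them Kremen1, a DKK1 receptor, at 20.9 to 32.1 CPM in ECs, and Frzb, a secreted Wnt antagonist, at 16.7 to 22.2 CPM in HSC+EC.

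Wls and Porcn, which serve the release of Wnt proteins, and Notum, a secreted enzyme that inactivates them, all passed 100 UMIs. Wls, the carrier that brings Wnt proteins to the surface, was at 140, 141, 193 and 173 CPM in ECs of WT, YAPKO, TAZKO and DKO. In T and NK cells, which keep YAP and TAZ, Wls was at 469, 492 and 397 CPM in WT, YAPKO and TAZKO and at 25.6 CPM in DKO (log2 ratio -4.19, -4.54 to -3.86). The DKO library was also lowest for Wls in cDCs (25.9 against 165 to 224 CPM), pDCs (8.34 against 119 to 187) and B cells (24.6 against 63.3 to 91.8), while in HSC+EC it was 156 CPM against 158 to 197. Each of these values rests on 1 mouse.

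By the likeness of their levels over 58 sums of a cell type in a library, the genes most like Wnt2 were Sox18, Arhgap23 and Clec14a (Pearson r of log2(CPM + 10), 0.988, 0.984 and 0.984). Those most like Fzd4 were Tek, Ephb4 and Bace2 (0.989, 0.988 and 0.987). Plvap was nearest to Rspo3 (0.886), Flrt2 to Wnt9b (0.894), Epb41l4b to Lgr4 (0.962), Cdc42bpb to Lrp6 (0.946) and Gm21955 to Dkk3 (0.901). The nearest genes to Znrf3 (Tesc, 0.757), Rnf43 (Pde3b, 0.733) and Rspo1 (Ms4a4a, 0.888) were less alike or rested on few UMIs. Over 19 sums of an EC subcluster in a library, Wnt9b and Rspo3 were each other's nearest gene (0.914), while Kctd12 was nearest to Wnt2 (0.905) and Cd93 to Fzd4 (0.909). Sums from 1 library share its depth and mouse, so these correlations are a description.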

How the data were processed

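Single-cell RNA of 4 libraries was analysed from the UMI count matrices deposited by the authors, whole-number counts per gene and barcode that had not been normalized. The submitters' processing notes name Cell Ranger 6.0.1 and mm10, while the file headers name Cell Ranger 4.0.0. Barcodes were kept if 500 to 6000 genes had a UMI and mitochondrial genes held no more than 10% of the UMIs. Counts were log-normalized to 10000 per cell, 2000 variable genes (without the 10 members and 54 other pathway genes) gave 20 principal components, which were corrected by library with a re-implementation of the Harmony method, and cells were clustered by the Louvain method at resolution 0.4 (Python 3.11.15, scikit-learn 1.9.0, igraph 0.11.9). Cell cycle genes came from Seurat 5.3.0. Clusters were named from 91 marker genes of 15 cell types, with at least 3 markers raised. The rule that adds "+EC" was set after the clusters were seen, and 4 clusters are described only through their subclusters or left unnamed. ECs and mesenchymal cells were subclustered at resolution 0.3. The doublet caller Scrublet (scanpy 1.11.5) marked almost no cell and so had not worked: doublets were kept, and the top 8% of scores were left out as an alternative.

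UMIs were summed per cell type and library and divided by the summed total (CPM). Exact Poisson intervals were used for CPM, exact conditional binomial intervals for log2 ratios, which needed at least 20 UMIs over both libraries, and Clopper-Pearson intervals for shares (SciPy 1.17.1). They cover counting error at the 95% level and not variation between mice. Those for CPM and ratios also leave out spread between cells. Every library is 1 mouse, so no p-value was computed. Library depth ranged from 49022089 to 85989454 UMIs over all barcodes. The members were always named, and of the other pathway genes those with at least 100 UMIs could be named. The members and gene lists were chosen with earlier results of these data known. Ratios were checked on simulated data. The alternatives tried were other limits on cells, correction, resolution, doublets, typing, scaling and zone scores, and the choices of HSCs, ECs and HCs were added after seeing the data. Protein sequences were not used here.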

Additional observations from a re-analysis of the deposited data

Results flagged for a closer look

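Several members differed from WT in opposite directions in 2 cell types of the same pair of libraries, with counting intervals on either side of 0. The difference between the cell types was not tested, since each library is 1 mouse.

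Wnt2 in YAPKO had a log2 ratio to WT of 0.16 in ECs and -2.85 in macrophages, and in DKO 0.36 in ECs and -3.59 in macrophages. Fzd4 in YAPKO was 0.40 in ECs and -1.97 in macrophages. In DKO, Fzd4 was 0.81 in HCs, where the median of all genes was 0.48, and -2.20 in macrophages. Macrophages held 13 Fzd4 UMIs in WT, 14 in YAPKO and 8 in DKO. The macrophage values rest on few cells with a UMI: Wnt2 had 34 UMIs in 12 WT cells, 20 in 6 YAPKO cells, 19 in 9 TAZKO cells and 8 in 5 DKO cells. With 8 UMIs in DKO, the Wnt2 ratio of -3.59 passed the limit of 20 UMIs only through WT, where it was high. No opposite direction is therefore read for Wnt2 in DKO. EC markers in macrophages were 354, 151, 445 and 213 CPM in the same order, and the part of EC RNA in these ratios was not tested.

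Rspo3 in YAPKO was 4.50 in cDCs and -2.30 in macrophages. WT cDCs held 2 Rspo3 UMIs, so the cDC ratio passed the limit on UMIs only through YAPKO, where Rspo3 was high. For Rspo3 in YAPKO, too, no opposite direction is therefore read. Of the 97 Rspo3 UMIs in YAPKO cDCs, 95 lay in 1 cell, so the cDC ratio describes that cell. In TAZKO and DKO cDCs, 44 of 49 and 44 of 83 Rspo3 UMIs also lay in 1 cell each. Lrp6 in YAPKO was 0.56 in HCs, where the median of all genes was 0.43, and -0.29 in KCs.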

How the results depend on the processing

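No paired analysis was possible because each genotype has 1 library and the groups share fewer than 2 replicate numbers. Of 461 alternative values for 79 results, 398 stayed within the interval or spread of the main value, 59 moved beyond it and 4 reversed. The causes were not tested. Log2 ratios to WT are given below unless stated.

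With 500 to 6000 read as UMIs per cell, Wnt2 in ECs was 0.28 (YAPKO), 0.92 (TAZKO) and 0.26 (DKO), Rspo3 in ECs 1.82 (YAPKO) and 0.36 (TAZKO), Fzd4 in ECs 0.30 (YAPKO), and Rspo3 in HSC+EC 0.38 (YAPKO, reversed), 0.90 (TAZKO) and 1.14 (DKO), with a mean of 117 CPM. With cells typed one by one from markers, Wnt2 in ECs was 0.13 (DKO), Rspo3 in ECs 0.30, -0.28 and 0.21 (YAPKO, TAZKO, DKO), Fzd4 in ECs 0.29 (YAPKO) and 0.087 (DKO) with a mean of 187 CPM, and Rspo3 in HSC+EC -0.21 (TAZKO) and -0.45 (DKO) with a mean of 567 CPM. Without the top 8% of doublet scores, Rspo3 was 0.79 in YAPKO ECs and -0.068 (TAZKO) and -0.30 (DKO) in HSC+EC, with a mean of 386 CPM there. Cluster 8 had no named counterpart, and so no value, with other cell limits, without correction by library or with cells typed one by one. That mean was 334 CPM with up to 20% mitochondrial UMIs, against 265 as reported. Without correction by library, Rspo3 in TAZKO HSC+EC was 0.38.

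Choices made after seeing the data gave Rspo3 ratios of -0.88, -0.29 and -0.52 (YAPKO, TAZKO, DKO) in the HSC subcluster and 0.28 (reversed), -0.071 and -0.37 in HSCs with EC markers at most 0.5% of UMIs. Within pericentral ECs, Wnt2 was 0.57 (TAZKO) and 0.19 (DKO) and Rspo3 0.21 (DKO). The mean log2 ratio of pericentral to periportal ECs was 4.49 (ranked parts) and 5.08 (resolution 0.6) for Wnt2, and 6.69 and 6.43 for Rspo3, each with smaller and more extreme groups of cells. The share of ECs with a UMI in TAZKO over that in WT turned from 0.993 to 1.02 for Rspo3 and from 0.866 to 1.06 for Fzd4 once cells were thinned to 1000 UMIs.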
